A study of Homo sapiens with 6 samples.

Results

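The osimertinib-resistant H1975 subline, labelled H1975-OR, was set against the parental H1975 line. The pair makes up 2 of the 6 samples of the study and was chosen by sample title. The study profiled messenger RNA of 3 EGFR-mutant lines of human non-small cell lung cancer, each as a parental and a resistant library. HCC827 and PC9, labelled E19Del, were selected with gefitinib and enter here only as points of comparison.

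Both H1975 samples carry EGFR L858R and T790M per the labels. H1975 was not treated, and H1975-OR came from 90 days of growth in rising osimertinib. The labels give the inhibitory concentration over all 3 lines as a range, from 0.016 to 0.07 µM before and from 4.288 to 12.485 µM after selection. Whether H1975-OR is a pool or a single clone, and whether drug was present when RNA was taken, is not given in the sources used here. Each state has 1 library, so no value below has a replicate and no test of the condition was possible. The 95% intervals are exact binomial (Clopper-Pearson) intervals of a ratio of 2 read counts. They and the floors cover counting error only.

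EGFR is a receptor tyrosine kinase whose activating mutations drive many lung adenocarcinomas. T790M in its kinase domain makes it less sensitive to the reversible inhibitors, and osimertinib was designed to bind this mutant covalently. Lines that become resistant without a further EGFR mutation often carry activity of another receptor or take on traits of epithelial-mesenchymal transition, in which cells give up adherens and tight junctions for motile, matrix-producing behaviour.

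The parental library held 21249637 exon reads and the resistant one 28895315, over 21463 genes. Intron reads numbered 2193361 and 2928935, or 9.36% and 9.20% of the reads assigned to genes. Mitochondrially encoded genes took 5.56% and 4.67% of exon reads, and 91.7% and 91.1% of exon reads mapped uniquely. A count of 0 allowed up to 3 reads, which is 0.141 CPM (reads scaled to the library total) in H1975 and 0.104 CPM in H1975-OR.

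The labelled cell type was checked against marker genes. All 7 epithelial markers reached 10 CPM in at least 1 library, and their summed level went from 3120 CPM in H1975 to 1840 CPM in H1975-OR. Of the lung adenocarcinoma lineage markers, 0 of 3 reached 10 CPM: NKX2-1, the lineage transcription factor, stood at 9.36 and 4.81 CPM, and NAPSA and SFTPB were below 1 CPM in both libraries. Of 7 leukocyte markers, CD68 (144 and 131 CPM), a lysosomal protein not limited to leukocytes, and CD14 (10.3 and 12.2 CPM) reached 10 CPM, while PTPRC and CD3E, which define leukocytes and T cells, had 0 reads in both libraries, and the summed level of the 7 was 156 and 144 CPM. The neuroendocrine genes CHGA and INSM1 had 0 reads in both and SYP had 33 and 55. Of 7 fibroblast markers, PDGFRA had 0 reads in both and DCN had 0 and 3. COL1A1 had 1399 and 3835 reads, PDGFRB 110 and 149, and COL3A1 6 and 53. Of 5 endothelial markers, 0 reached 10 CPM, and CDH5 had the most reads (94 and 135). In bulk RNA of this kind, fewer cells that express a gene and less of its RNA per cell cannot be told apart.

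Promoter sequences are shown first for genes of the 2 lists that the comparison turns on, because they carry short motifs tied to those programmes. The interferon-stimulated response element is the DNA site through which type I interferon acts on its target genes, and a short form of it is GAAA repeated with any 2 bases between the copies. ZEB1, ZEB2 and SNAI factors repress epithelial genes through E-boxes of the form CACCTG. Each sequence is the 250 bases before a RefSeq gene start (GRCh38.p14), printed 5′ to 3′ along the gene's strand, with the motif on either strand in capitals. The first 5 belong to interferon-stimulated genes.
MX1: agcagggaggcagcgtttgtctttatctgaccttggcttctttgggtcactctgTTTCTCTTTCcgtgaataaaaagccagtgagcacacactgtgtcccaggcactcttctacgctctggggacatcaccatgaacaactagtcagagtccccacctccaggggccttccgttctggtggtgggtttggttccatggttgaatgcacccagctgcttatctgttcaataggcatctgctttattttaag
IFI6: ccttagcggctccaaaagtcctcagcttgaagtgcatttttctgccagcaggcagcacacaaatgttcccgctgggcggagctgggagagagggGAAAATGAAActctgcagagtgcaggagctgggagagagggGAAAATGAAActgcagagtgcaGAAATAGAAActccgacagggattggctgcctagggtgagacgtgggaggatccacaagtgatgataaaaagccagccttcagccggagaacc
IFI44L: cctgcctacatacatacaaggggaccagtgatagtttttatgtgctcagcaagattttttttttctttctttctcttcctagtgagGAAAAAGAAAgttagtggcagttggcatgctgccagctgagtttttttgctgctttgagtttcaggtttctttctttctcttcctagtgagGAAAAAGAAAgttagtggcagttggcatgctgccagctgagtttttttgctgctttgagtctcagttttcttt
RSAD2: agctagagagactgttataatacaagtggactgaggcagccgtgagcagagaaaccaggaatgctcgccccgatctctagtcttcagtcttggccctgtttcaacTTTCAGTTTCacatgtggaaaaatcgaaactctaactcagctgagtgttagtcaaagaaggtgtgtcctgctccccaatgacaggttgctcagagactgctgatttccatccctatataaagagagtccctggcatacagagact
ISG15: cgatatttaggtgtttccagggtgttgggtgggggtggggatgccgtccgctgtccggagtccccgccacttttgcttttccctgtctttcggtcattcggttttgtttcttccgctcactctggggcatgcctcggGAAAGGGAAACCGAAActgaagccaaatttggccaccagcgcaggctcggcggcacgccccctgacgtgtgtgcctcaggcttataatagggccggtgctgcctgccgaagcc

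MX1 was read from chr21:41431800-41432049 on the plus strand, at 1 of its 3 listed starts. IFI6 was read from chr1:27672193-27672442 on the minus strand. On the plus strand, IFI44L was read from chr1:78620198-78620447, RSAD2 from chr2:6877527-6877776, at 1 of its 2 listed starts, and ISG15 from chr1:1013247-1013496. IFI6 has 3 matches, beginning 156, 115 and 93 bases before the start. The ISG15 matches begin 113 and 107 bases before the start and overlap each other. The GAAA repeat, searched on both strands, was found before the start of 20 of the 27 measured interferon-stimulated genes with a promoter entry (74.1%). In the whole table it occurs in 3.02% of 35116 promoters, or for 3.71% of 27305 genes. Among the members it was present for 7 of 10 genes past 2-fold (70.0%) and for 13 of 17 under 2-fold (76.5%). A match is a description of the letters and no evidence of binding.

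The next 3 belong to epithelial genes that were lower in H1975-OR and hold CACCTG.
DSP: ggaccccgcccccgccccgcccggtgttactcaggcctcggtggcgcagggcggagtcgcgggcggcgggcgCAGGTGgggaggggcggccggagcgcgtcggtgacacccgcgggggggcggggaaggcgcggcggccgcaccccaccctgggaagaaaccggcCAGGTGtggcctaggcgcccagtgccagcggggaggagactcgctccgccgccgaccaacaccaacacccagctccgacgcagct
MUC1: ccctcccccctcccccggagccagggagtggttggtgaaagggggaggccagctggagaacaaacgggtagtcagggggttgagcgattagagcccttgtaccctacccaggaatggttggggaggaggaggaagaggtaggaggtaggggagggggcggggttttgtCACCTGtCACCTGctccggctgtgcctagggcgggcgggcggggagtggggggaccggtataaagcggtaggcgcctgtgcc
CD24: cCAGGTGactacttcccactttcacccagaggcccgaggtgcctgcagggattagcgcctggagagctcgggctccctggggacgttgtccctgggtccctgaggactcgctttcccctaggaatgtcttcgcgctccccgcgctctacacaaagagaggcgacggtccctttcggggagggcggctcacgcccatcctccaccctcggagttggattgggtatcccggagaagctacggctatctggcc

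DSP was read from chr6:7541421-7541670 on the plus strand, with matches beginning 178 and 85 bases before the start. On the minus strand, MUC1 was read from chr1:155192916-155193165 and CD24 from chr6:106974040-106974289, at 1 of its 3 listed starts. The other listed starts of MX1, RSAD2 and CD24 had no match. The MUC1 matches begin 82 and 75 bases before the start, a single base apart. CACCTG, searched on both strands, was found for 6 of 9 measured epithelial junction and surface genes with an entry (66.7%), against 20.6% of all genes and 17.5% of all promoters. By ratio, CACCTG was present for 3 of 4 genes past 2-fold and for 3 of 5 under 2-fold, too few genes to compare. CLDN4, also past 2-fold on the lower side, has an entry and no match. Only 9 of the 19 measured members have an entry in the table, and CDH1 and EPCAM have none.

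The question of the comparison was which genes differ between a line and its osimertinib-resistant descendant. A gene was measured if it reached 10 CPM in either library, which held for 10087 genes. At 2-fold or more, 604 genes differed (5.99%): 170 were higher in H1975-OR (1.69%) and 434 were lower (4.30%). At 4-fold the counts were 45 and 115, and at 16-fold they were 2 and 16. Lower genes thus made up 71.9% of those past 2-fold, while the median log2 ratio of all measured genes was −0.02 (quartiles −0.31 and 0.22). The genes nearest the limit had absolute log2 ratios of 1.001 and 0.999. Fewer than 80% of exon reads mapped uniquely for 81 of the 604 genes, and their values are less certain.

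**Figure D1:**
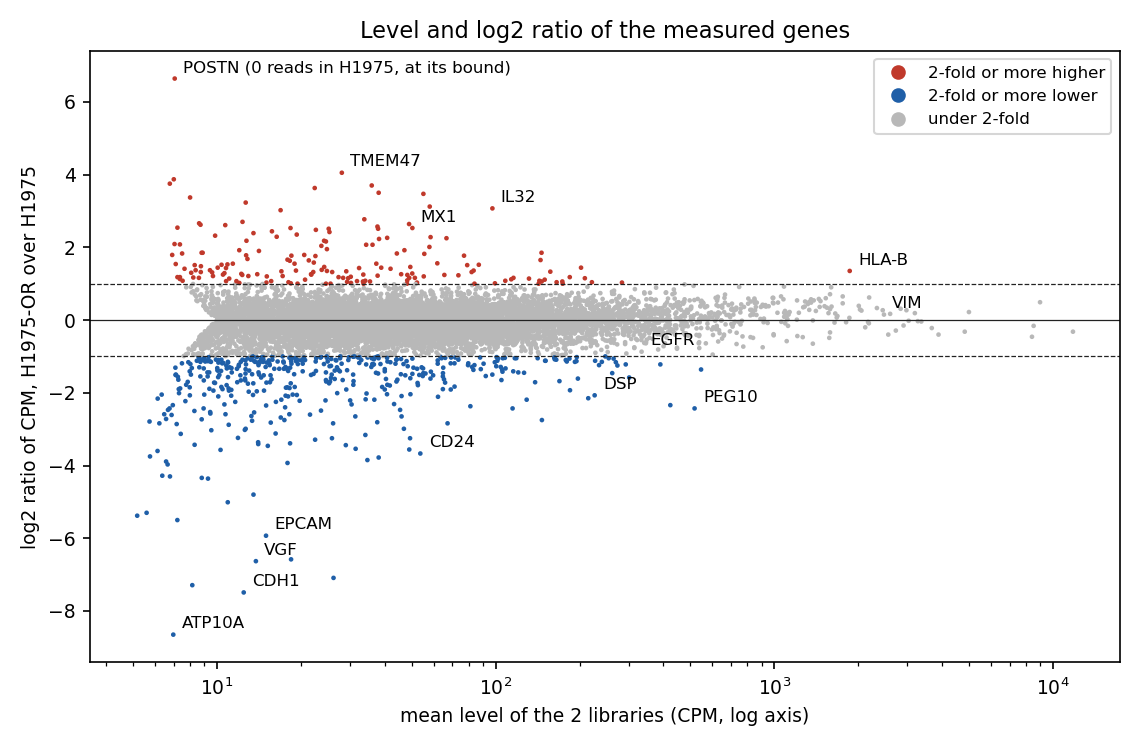
Mean level of each measured gene in the 2 H1975 libraries (CPM, log axis) against its log2 ratio of H1975-OR over H1975, with dashed lines at 2-fold and 1 point per gene. The 434 lower genes reach a log2 ratio of −8.65 (ATP10A), and the 170 higher genes lie between 1 and 4.05 apart from POSTN, which is placed at its lower bound.

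The lowest genes were close to silent in H1975-OR. ATP10A, a phospholipid flippase, had 295 reads in H1975 and 1 in H1975-OR, a log2 ratio of −8.65 with an interval of −13.96 to −6.16. CDH1 (ENSG00000039068, hg38 chromosome 16, 68737225 to 68835548), which encodes E-cadherin of the adherens junction, went from 528 reads to 4 (−7.49, interval −9.37 to −6.12). UGT8, which makes galactosylceramide, went from 345 reads to 3 (−7.29, interval −9.57 to −5.73). These 3 genes were each above 10 CPM in H1975 and at or near the limit of detection in H1975-OR.

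EPCAM (ENSG00000119888, hg38 chromosome 2, 47345158 to 47387601), an epithelial adhesion molecule, had 626 reads in H1975 and 14 in H1975-OR, a log2 ratio of −5.93 (interval −6.81 to −5.17). COBL, an actin nucleator, went from 1105 reads to 11 (−7.09), and VGF, a secreted neuropeptide precursor, from 581 to 8 (−6.63). TMEM255A went from 776 reads to 11 (−6.58). The other 8 of the 15 lowest protein-coding genes were SLCO2A1, MMP13, ARL14, GALNT12, MUC16, IGFBP2, ADGRF5 and GPNMB, with log2 ratios from −5.50 to −4.28. They include a prostaglandin transporter (SLCO2A1), a collagenase (MMP13), a mucin that is the CA125 antigen (MUC16) and an insulin-like growth factor-binding protein (IGFBP2).

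Among the highest genes, POSTN, which encodes the matrix protein periostin, had 0 reads in H1975 and 408 in H1975-OR, or 14.1 CPM. Against the floor of 3 reads its log2 ratio was at least 6.64. It was the 1 measured gene without a read in one library. TMEM47, a junction-associated membrane protein, went from 3.20 to 52.9 CPM (4.05), and ALPK2, an alpha kinase, from 5.13 to 66.7 CPM (3.70). OLR1, the receptor for oxidised low-density lipoprotein, went from 9.08 to 101 CPM (3.47). In these genes the parental level was low and the resistant level moderate.

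The remaining genes among the 15 highest were PLSCR4, SDC2, TNFRSF11B, ABI3BP, RERG, CADM1, IL32, BDKRB1, ANKRD1, TMPRSS2 and ROBO4, with log2 ratios from 3.87 to 2.66. SDC2 is a heparan sulphate proteoglycan, TNFRSF11B encodes the decoy receptor osteoprotegerin, and CADM1 is a cell adhesion molecule of the immunoglobulin family. CADM1 had 12 CPM in H1975 and 104 CPM in H1975-OR.

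By absolute level, the largest gain was in HLA-B (ENSG00000234745, hg38 chromosome 6, 31269491 to 31357188), a classical MHC class I heavy chain, from 1050 to 2680 CPM (1.35). HLA genes are close relatives, although 99% of its exon reads mapped uniquely. The next gains past 2-fold were FSTL1, BCAT1, HTRA1, TPM1, CXCL8, IL32, CCL2, SLC43A3 and CSF1. HTRA1, a secreted serine protease, went from 63.2 to 229 CPM, and CSF1, the macrophage growth factor, from 89.2 to 225 CPM. BCAT1, the cytosolic branched-chain aminotransferase, went from 109 to 296 CPM.

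The largest loss was in PEG10 (ENSG00000242265, hg38 chromosome 7, 94656325 to 94669695), a retrotransposon-derived imprinted gene, from 873 to 162 CPM (−2.43). AHNAK2 followed, from 707 to 140 CPM, and then CPD, a carboxypeptidase, from 786 to 306 CPM. The others were MET, ITGA3, DSP, KRT19, MT2A, CD109 and SEMA3C, so 3 of the 10 largest losses (ITGA3, DSP and KRT19) were integrin, desmosome and keratin genes of epithelial cells.

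Epithelial junction and surface genes included several of the lowest genes and had the lowest median of the 19 plotted lists. Of 19 measured members, 9 lay past 2-fold on the lower side and 0 on the higher (4.30% and 1.69% of all genes), 16 had a ratio below 0, and the median log2 ratio was −0.95 against −0.02 over all genes. CD24, a surface sialoglycoprotein, went from 99.5 to 7.82 CPM (−3.67), and CDH3, which encodes P-cadherin, from 45.8 to 6.40 CPM (−2.84). The tight junction gene CLDN4 went from 56.0 to 12.3 CPM (−2.18), and DSP, the desmoplakin of desmosomes, from 366 to 87.2 CPM (−2.07). The others past 2-fold were CDH1, EPCAM, SPINT2 (−3.25, 59% of reads unique), MPZL2 (−2.06) and MUC1 (−2.02).

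The other 10 measured members were under 2-fold, and 3 of them had a ratio above 0. CLDN1 stood at 61.1 and 89.0 CPM (0.54), MAL2 at 19.0 and 22.5 CPM (0.24) and the plakophilin PKP3 at 34.3 and 37.2 CPM (0.12). The desmosomal cadherin DSG2 stood at 385 and 204 CPM, just under 2-fold (−0.92). A further 15 members of the list did not reach 10 CPM in either library and all 15 had a lower CPM in H1975-OR. The list's median was −1.52 with uniquely mapping reads and −1.50 with the deposited TPM.

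Epithelial regulators were already low in the parental line. The splicing regulator ESRP1 had 138 reads in H1975 and 0 in H1975-OR, and the transcription factor GRHL2 had 42 reads and 1; neither reached 10 CPM. Of 4 measured epithelial transcription and splicing factors, EHF (15.1 and 6.78 CPM, −1.15) and KLF5 (24.5 and 11.9 CPM, −1.04) were past 2-fold (4.30% of all genes were lower). ELF3 (−0.04) and ESRP2 (−0.10) lay near 0. KLF5 was under 2-fold under 4 other settings, the smallest ratio being −0.96.

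Simple keratins, the intermediate filaments of simple epithelia, stayed abundant. KRT8 stood at 1330 and 886 CPM (−0.58) and KRT18 at 764 and 535 CPM (−0.51). KRT7 stood at 567 and 328 CPM (−0.79). KRT19 alone of the 5 measured was past 2-fold, at 351 and 78.9 CPM (−2.15), where 4.30% of all genes were lower.

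Of the transcription factors that repress epithelial genes, ZEB2 (ENSG00000169554, hg38 chromosome 2, 144364364 to 144524583) was higher, with 241 reads in H1975 and 1862 in H1975-OR, or 11.3 and 64.4 CPM (2.51, interval 2.31 to 2.71). Its intron reads were 19 and 168. ZEB1 stood at 48.6 and 52.8 CPM (0.12). Per length, ZEB1 was the more abundant in both libraries, at 20.8 and 22.2 TPM (reads scaled by exon length and library) against 1.99 and 11.1 TPM for ZEB2. SNAI2 (18.3 and 10.9 CPM, −0.74) and SNAI1 (18.8 and 14.2 CPM, −0.40) were lower by less than 2-fold, and TWIST1 and TWIST2 had 0 exon reads.

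Mesenchymal markers were mixed, and their main intermediate filament was already abundant. VIM, which encodes vimentin, stood at 2350 CPM in H1975 and 2600 CPM in H1975-OR (0.15), and fibronectin (FN1) at 1060 and 1520 CPM (0.51). Of 18 measured markers, 5 were at least 2-fold higher and 1 lower (1.69% and 4.30% of all genes), with a median of 0.39. The higher ones were POSTN, COL1A2 (31.3 and 92.2 CPM), COL5A2 (4.61 and 12.9 CPM), S100A4 (47.0 and 117 CPM) and COL1A1 (65.8 and 133 CPM). COL1A1 and COL1A2 encode the chains of collagen I. COL1A1 was at 1.01, and at 0.99 with the deposited TPM. Of 7 fibroblast markers COL1A1 alone reached 10 CPM, and their summed level was 71.6 and 140 CPM, nearly all of it COL1A1.

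Genes of basement membrane and its receptors differed in both directions. Past 2-fold, 3 of 11 integrin subunits lay on the lower side (4.30% of all genes) and 1 on the higher (1.69%), with a median of −0.75. The lower ones were ITGB4 (23.3 and 3.43 CPM, −2.77), ITGA6 (258 and 80.8 CPM, −1.68) and ITGA3 (452 and 151 CPM, −1.58), which form laminin receptors. The higher one was ITGA11, the alpha chain of a collagen I receptor (3.29 and 16.4 CPM, 2.32). The laminin chain gene LAMA3 went from 70.9 to 5.16 CPM (−3.78). Its intron reads went from 290 to 26. Of 12 laminin and basement membrane genes, 6 had a ratio below 0, and past 2-fold 4 were lower (LAMA3, LAMA5, LAMB1 and COL17A1) and COL4A5 was higher (10.3 and 34.8 CPM, 1.76), against the same shares of all genes. The median of that list was −0.34, but 0.07 with the deposited TPM.

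**Figure D2:**
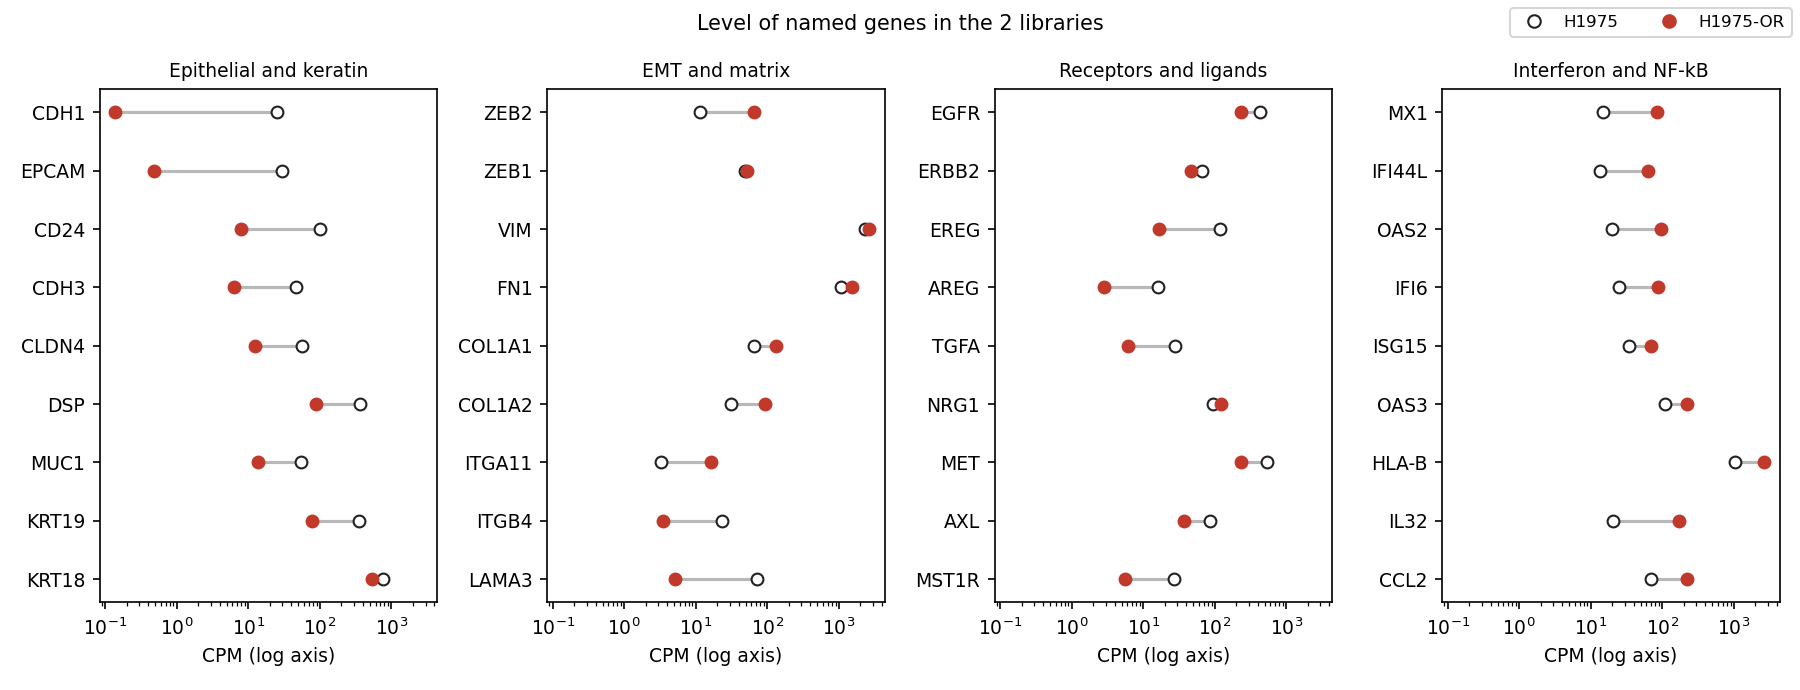
Level of 36 named genes (CPM, log axis) in H1975 (open circles) and H1975-OR (filled circles), 1 library each, in 4 groups. Junction genes, EGFR ligands, ITGB4 and LAMA3 lie to the left in H1975-OR, VIM and ZEB1 nearly coincide, and ZEB2, ITGA11 and the interferon and NF-kB genes lie to the right.

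In the EGFR family, the receptor was lower by less than 2-fold and 3 of its ligands were lower by more. EGFR (ENSG00000146648, hg38 chromosome 7, 55019021 to 55211628) had 9172 and 6829 reads, or 432 and 236 CPM (−0.87, interval −0.91 to −0.82). Its ligands epiregulin (EREG, 118 and 16.4 CPM, −2.84), amphiregulin (AREG, 16.1 and 2.80 CPM, −2.53) and TGFA (27.9 and 6.13 CPM, −2.19) were all past 2-fold. Intron reads of EREG were 101 and 22. HBEGF stood at 24.5 and 18.7 CPM (−0.39). NRG1, the neuregulin ligand of ERBB3 and ERBB4, was the 1 of 7 measured members above 0, at 95.8 and 124 CPM (0.37). The co-receptor ERBB2 stood at 67.3 and 46.1 CPM (−0.55). ERBB3 did not reach 10 CPM and had 136 and 11 reads, 65% of them unique.

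Among other receptor tyrosine kinases and ligands, 0 of 13 measured members were 2-fold higher and 5 were lower (1.69% and 4.30% of all genes), with a median of −0.61. MET (ENSG00000105976, hg38 chromosome 7, 116672390 to 116798386), the hepatocyte growth factor receptor, stood at 545 and 235 CPM (−1.22). AXL, the GAS6 receptor, stood at 86.3 and 37.6 CPM (−1.20). The MET relative MST1R went from 26.9 to 5.64 CPM (−2.25), and EPHB4 (−1.55) and the collagen receptor DDR1 (−1.08) were lower too. IGF1R stood at 58.4 and 57.6 CPM (−0.02) and FGFR1 at 27.2 and 21.1 CPM (−0.37). FGF2, which did not reach 10 CPM, had 0.235 and 2.11 CPM with 0% of its reads unique, so this value is uncertain.

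Genes that report ERK activity differed unevenly. Of 15 measured, 0 were 2-fold higher and 4 lower, where 4.30% of all genes were lower: the phosphatase DUSP4 (81.5 and 28.0 CPM, −1.54), the feedback inhibitors SPRY4 (−1.23) and SPRED1 (−1.05), and PHLDA1 (−1.10). DUSP6, a direct ERK target, stood at 29.1 and 25.1 CPM (−0.21), and FOSL1 at 81.0 and 75.5 CPM (−0.10). MYC stood higher by less than 2-fold, at 304 and 514 CPM (0.76). EGR1, an immediate-early factor, went from 12.5 to 3.46 CPM (−1.85). SPRED1 was just under 2-fold with TMM scaling (−0.99 and −0.97).

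Interferon-stimulated genes gave more genes past 2-fold higher than any other of the 39 lists. Of 33 measured members, 13 were at least 2-fold higher and 0 lower, against 1.69% higher over all genes. Ratios above 0 numbered 29, and the median log2 ratio was 0.82. MX1 (ENSG00000157601, hg38 chromosome 21, 41420304 to 41459214), an antiviral GTPase, had 315 and 2475 reads, or 14.8 and 85.7 CPM (2.53, interval 2.36 to 2.70). RSAD2, which encodes the antiviral enzyme viperin, went from 4.33 to 22.7 CPM (2.39). The oligoadenylate synthase OAS2 went from 20 to 96.8 CPM (2.28), IFI44L from 13.4 to 62.9 CPM (2.23) and IFI6 from 24.5 to 86.4 CPM (1.82).

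The ubiquitin-like ISG15 stood at 34.4 and 70.0 CPM (1.03), and OAS3 at 108 and 223 CPM (1.04). The others past 2-fold were MX2, XAF1, OAS1, OASL, IFIT3 and CMPK2. Mapping was mostly to several places for IFIT3 (9% unique), IFIT1 (11% unique, 0.84) and XAF1 (26% unique), so those 3 values are uncertain. IFI44 (0.29), PARP14 (0.19), BST2 (0.53) and IFITM2 (0.05) differed by less, and SAMD9 stood at 79.5 and 65.7 CPM (−0.28). By intron reads, 10 of 16 members with enough reads were 2-fold higher (2.98% of all genes) and 0 lower, with a median of 1.08. The IFI44L intron reads were 140 and 654.

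The sensors and signalling genes upstream differed less. Of 17 measured, the RNA sensor IFIH1 alone was past 2-fold (19.1 and 39.5 CPM, 1.05), where 1.69% of all genes were higher, and the median was 0.21. IRF9, an interferon signalling factor, stood at 13.9 and 22.1 CPM (0.67, 3% unique). STAT2 stood at 33.7 and 31.1 CPM (−0.11) and the receptor chain IFNAR1 at 77.9 and 72.3 CPM (−0.11). IFNB1, which encodes interferon beta, had 0 reads in H1975 and 2 in H1975-OR, 0.0692 CPM.

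Of 17 measured MHC class I presentation genes, 14 had a ratio above 0 and HLA-B alone was past 2-fold (1.69% of all genes were higher), with a median of 0.52. The window of 25 neighbouring genes that holds HLA-B, from PRR3 to PRRC2A on chromosome 6, had a median of 0.27, with 4 genes below 0. B2M, the shared light chain, stood at 1420 and 1750 CPM (0.30), and the peptide transporter TAP1 at 97.0 and 155 CPM (0.67). Of 3 measured class II genes, 2 were past 2-fold lower (4.30% of all genes) and 1 stood above 0. The class II activator CIITA went from 15 to 4.53 CPM (−1.72) and the invariant chain CD74 from 80.6 to 24.3 CPM (−1.73), while HLA-DMA, a peptide-loading chain, stood at 13.6 and 19.7 CPM (0.53). CD274, which encodes the checkpoint ligand PD-L1, went from 21.0 to 9.72 CPM (−1.11).

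Of 18 measured NF-kB inflammatory genes, 5 were at least 2-fold higher and 0 lower (1.69% and 4.30% of all genes), 16 had a ratio above 0, and the median was 0.83. IL32 (ENSG00000008517, hg38 chromosome 16, 3065297 to 3082192), a proinflammatory cytokine, had 440 and 5016 reads, or 20.7 and 174 CPM (3.07, interval 2.93 to 3.21). The chemokines CXCL5 (19.4 and 69.0 CPM, 1.83), CCL2 (69.8 and 220 CPM, 1.65) and CXCL8 (145 and 298 CPM, 1.04) and the prostaglandin synthase PTGS2 (16.5 and 41.7 CPM, 1.34) were also higher. NFKB1 (0.96), RELB (0.92) and BIRC3 (0.91) were just under 2-fold, and TNFAIP2 stood at 361 and 252 CPM (−0.52).

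**Figure D3:**
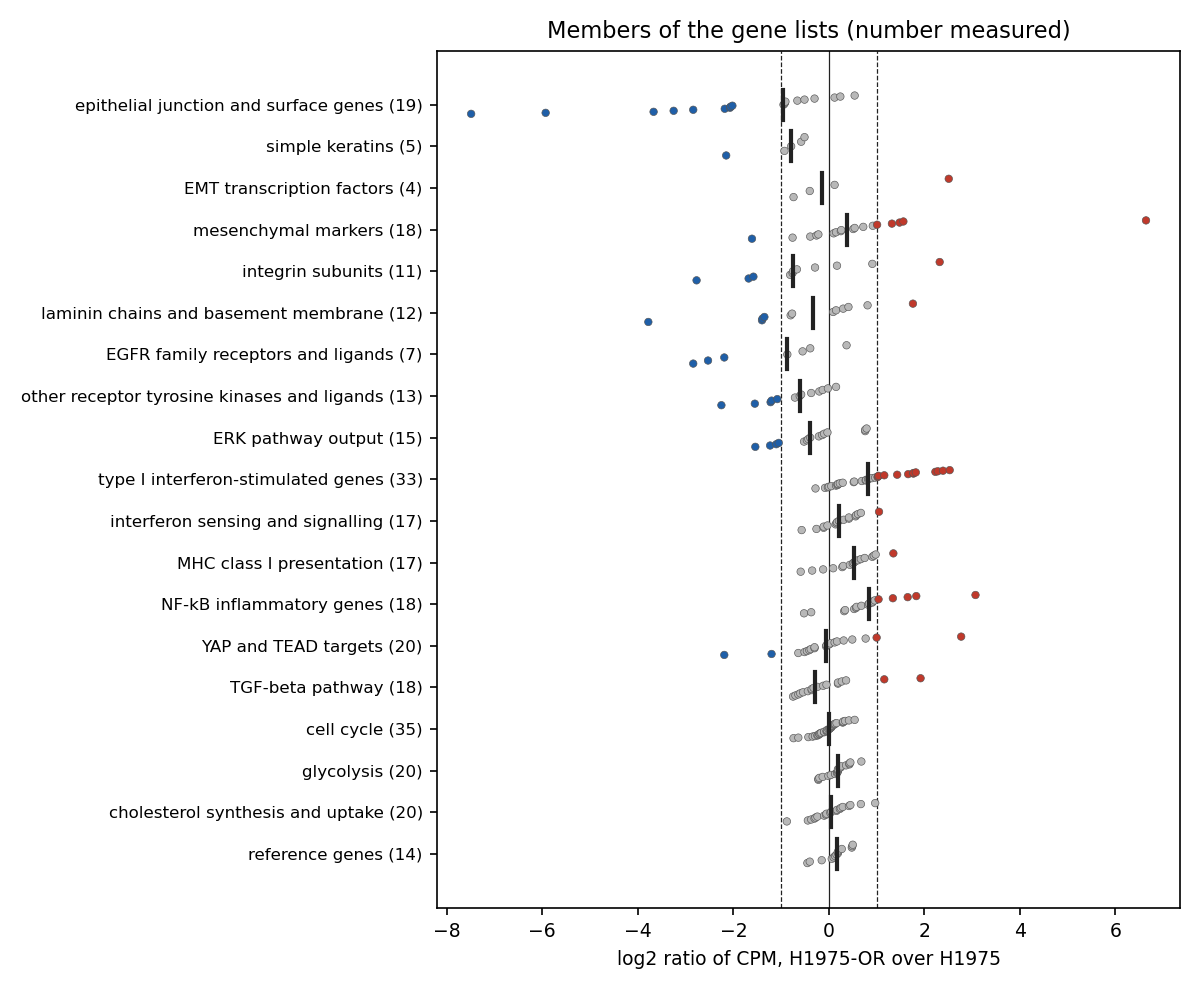
Log2 ratio of H1975-OR over H1975 for each measured member of 19 gene lists (1 point per gene, number measured in brackets), with the list median as a black bar and dashed lines at 2-fold. Medians run from −0.95 (epithelial junction and surface genes) to 0.83 (NF-kB inflammatory genes), while cell cycle genes lie around 0.01.

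Cell cycle, cholesterol, fatty acid and glycolysis lists had medians from 0.00 to 0.19, against −0.02 over all genes. Of 35 cell cycle genes 0 were past 2-fold in either direction (5.99% of all genes), with a median of 0.01. The count was also 0 for 20 cholesterol genes (median 0.04), 13 fatty acid synthesis genes (median 0.00), 20 glycolysis genes (median 0.19) and 14 reference genes (median 0.17). In lists of 13 to 35 genes, a count of 0 is not far from the share of all genes. The cholesterol enzyme nearest to 2-fold was SQLE (31.7 and 62.3 CPM, 0.97). The cyclin-dependent kinase inhibitor CDKN1A went from 28.0 to 7.75 CPM (−1.85), and the death receptor FAS from 23 to 9.10 CPM (−1.34). They were the 2 past 2-fold of 9 measured cyclin-dependent kinase inhibitors and p53 target genes, where 4.30% of all genes were lower. The other 7 were under 2-fold, and the median of the 9 was −0.15.

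Stress and drug-handling genes went both ways. AKR1C1, an aldo-keto reductase, went from 13.5 to 84.3 CPM (2.64), and AKR1C3 from 44.0 to 103 CPM (1.23). The glutathione genes GCLM (68.4 and 28.3 CPM, −1.27) and GSR (56.3 and 25.5 CPM, −1.14) were lower. So was the haem oxygenase HMOX1 (53.9 and 23.3 CPM, −1.21). Among 21 measured glutathione genes and targets of the transcription factor NRF2, 2 were 2-fold higher and 3 lower (1.69% and 4.30% of all genes). The other 16 were under 2-fold. Ratios were below 0 for 15 of the 21 and above 0 for 6, with a median of −0.16. Of 8 measured efflux transporters, ABCC3 (80.7 and 29.3 CPM, −1.46) and ABCA1 (127 and 49.9 CPM, −1.35) were 2-fold lower and 0 higher (4.30% and 1.69% of all genes). ABCB1 did not reach 10 CPM, and ABCG2 stood at 85.7 and 60.4 CPM (−0.50).

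Of the cell death regulators of the BCL2 family, PMAIP1, which encodes the BH3-only protein NOXA, went from 72.2 to 29.2 CPM (−1.31), and the other 9 measured were under 2-fold. BCL2L11, which encodes BIM, stood at 25.9 and 17.9 CPM (−0.54), and MCL1 at 386 and 369 CPM (−0.07). Among YAP and TEAD targets, ANKRD1 went from 8.66 to 58.9 CPM (2.77), NT5E, which encodes CD73, from 212 to 46.4 CPM (−2.19), and the median of 20 was −0.05. Of 11 hypoxia-induced genes ANGPTL4 alone was past 2-fold (19.2 and 4.05 CPM, −2.25), and of 15 genes of the ATF4 and unfolded protein response DDIT3 alone was (16.9 and 7.03 CPM, −1.27). Over all genes 4.30% were 2-fold lower. The 13 mitochondrially encoded genes all lay below 0, with a median of −0.16. The TGF-beta family ligand INHBA went from 5.04 to 19.0 CPM (1.92), and the receptors TGFBR1 (−0.64) and TGFBR2 (−0.44) stood lower by less than 2-fold.

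Intron reads are taken to come mostly from unspliced transcripts and were counted separately from exon reads, although from the same libraries. Not all of them can be of this kind, since the 13 mitochondrially encoded genes, which have no introns, also had such reads. With at least 100 intron reads in either library, 7690 genes were compared. Of these 229 were at least 2-fold higher (2.98%) and 231 lower (3.0%), with a median of 0.09. The excess of lower genes among exon reads did not appear in this count. Of the genes past 2-fold by exon reads, the count held 211 of the 434 lower and 99 of the 170 higher. By intron reads, 129 of those 211 and 36 genes under 2-fold by exon reads were at least 2-fold lower. Likewise 77 of those 99 and 108 genes under 2-fold by exon reads were higher. The excess was thus not seen by intron reads among genes measured both ways either. Across the 6948 genes measured both ways the log2 ratios had a Pearson's r of 0.81 and a Spearman's rho of 0.73, given as a description, since genes are not replicates and share both libraries.

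Genes past 2-fold by exon reads mostly had the same direction by intron reads. Of 99 higher genes with enough intron reads, 97 were above 0 and 77 past 2-fold. Of 211 lower genes, 210 were below 0 and 129 past 2-fold. In neither set was a gene 2-fold the other way. A further 108 genes were 2-fold higher and 36 lower by intron reads alone. A gene could pass the cut of 100 intron reads through 1 library only, as IL32 (23 and 211) and COBL (250 and 5) did. Such a gene leans to the same direction through the cut itself, so the counts of shared direction are no independent check. The same limit holds for counts of list members by intron reads. The stranded kit is known, but the strand setting of the counting is not given in the sources used here, so reads from overlapping genes could have entered intron counts.

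**Figure D4:**
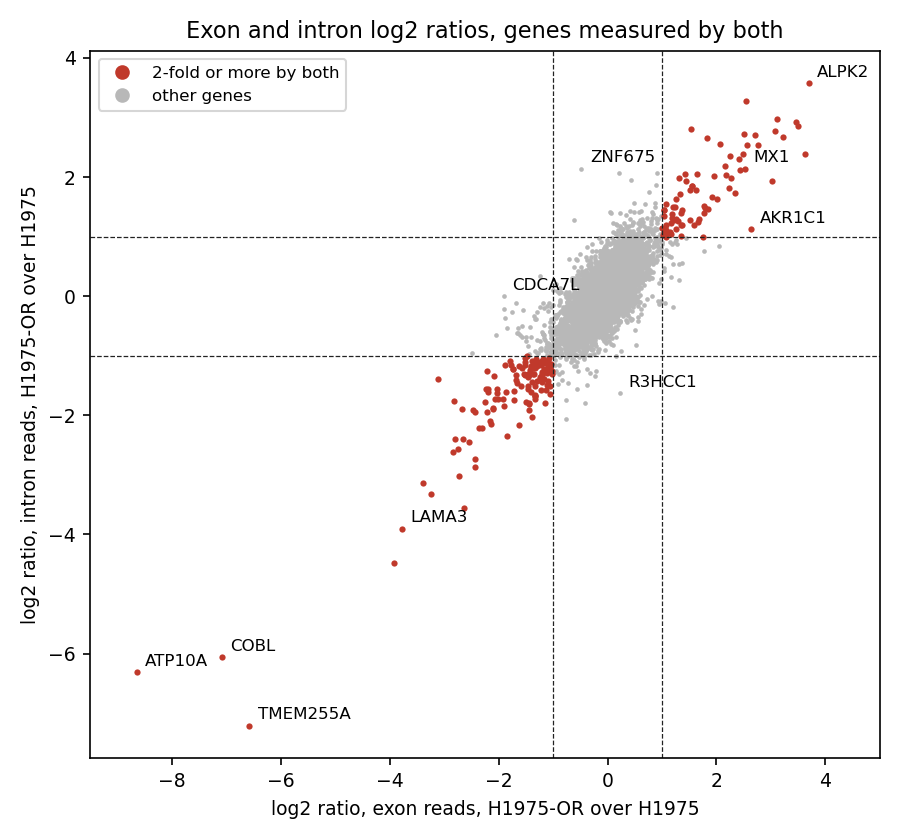
Log2 ratio of exon reads against log2 ratio of intron reads, H1975-OR over H1975, for the 6948 genes measured by both, with dashed lines at 2-fold. Genes past 2-fold by both lie in 2 opposite corners, and ZNF675, R3HCC1 and CDCA7L stand off the diagonal.

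Some genes differed mainly in introns. ZNF675, a zinc finger gene (hg38 chromosome 19, 23525631 to 23687220), had 1116 intron reads in H1975 and 6584 in H1975-OR (2.14), while its exon reads were 900 and 879 (−0.48). CADM2, a synaptic adhesion gene, had 1 and 533 intron reads, with 0 and 1 exon reads. CNBD1 went from 416 intron reads to 17 with 0 exon reads in both, and STK32A from 312 to 2. CDCA7L showed the reverse: exon levels of 109 and 29.0 CPM (−1.91) stood against 346 and 462 intron reads (−0.00). R3HCC1 had 9.84 and 11.5 CPM by exons (0.22) and 960 and 415 intron reads (−1.63).

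The genes past 2-fold were also set out by position. Chromosome 7, which carries EGFR, MET, PEG10 and SEMA3C, had the lowest median of the numbered chromosomes and X. Its 474 measured genes had a median log2 ratio of −0.44, and 90.3% lay below the median of all genes. Of them 49 (10.3%) were at least 2-fold lower and 4 higher, where 4.30% of all genes were lower and 1.69% higher. Each of its 18 windows of 25 neighbouring genes had a median below 0, from −0.64 to −0.19, and the intron median was −0.33. EGFR lies in the lowest of these windows, from IGFBP3 to ZNF92. The difference of chromosome 7 from all genes was −0.42, and −0.44 to −0.41 under the 9 other settings, an alternative chosen after the data had been seen. Settings that only rescale a library move all genes alike, so they could hardly change this difference.

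Chromosome 18 followed, with a median of −0.37 over 151 genes, 6 of 6 windows below 0 and 16 genes (10.6%) lower, again beside 4.30% of all genes. Over the 393 windows of the genome, the quartiles of the window medians were −0.17 and 0.14. On chromosome 2 the first 8 windows, from SH3YL1 to GMCL1, had medians of −0.49 to −0.09, and the other 18 had medians of −0.00 to 0.54. On chromosome 17 a stretch of 15 windows from TVP23B to SEPT9 had medians from −0.61 to −0.17. Chromosome 22 had 10 of 10 windows above 0. Window medians of exon and intron reads had a Pearson's r of 0.87 over windows, a description of neighbouring genes in the same libraries. DNA copy number was not analysed here, and its part in these values was not tested.

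**Figure D5:**
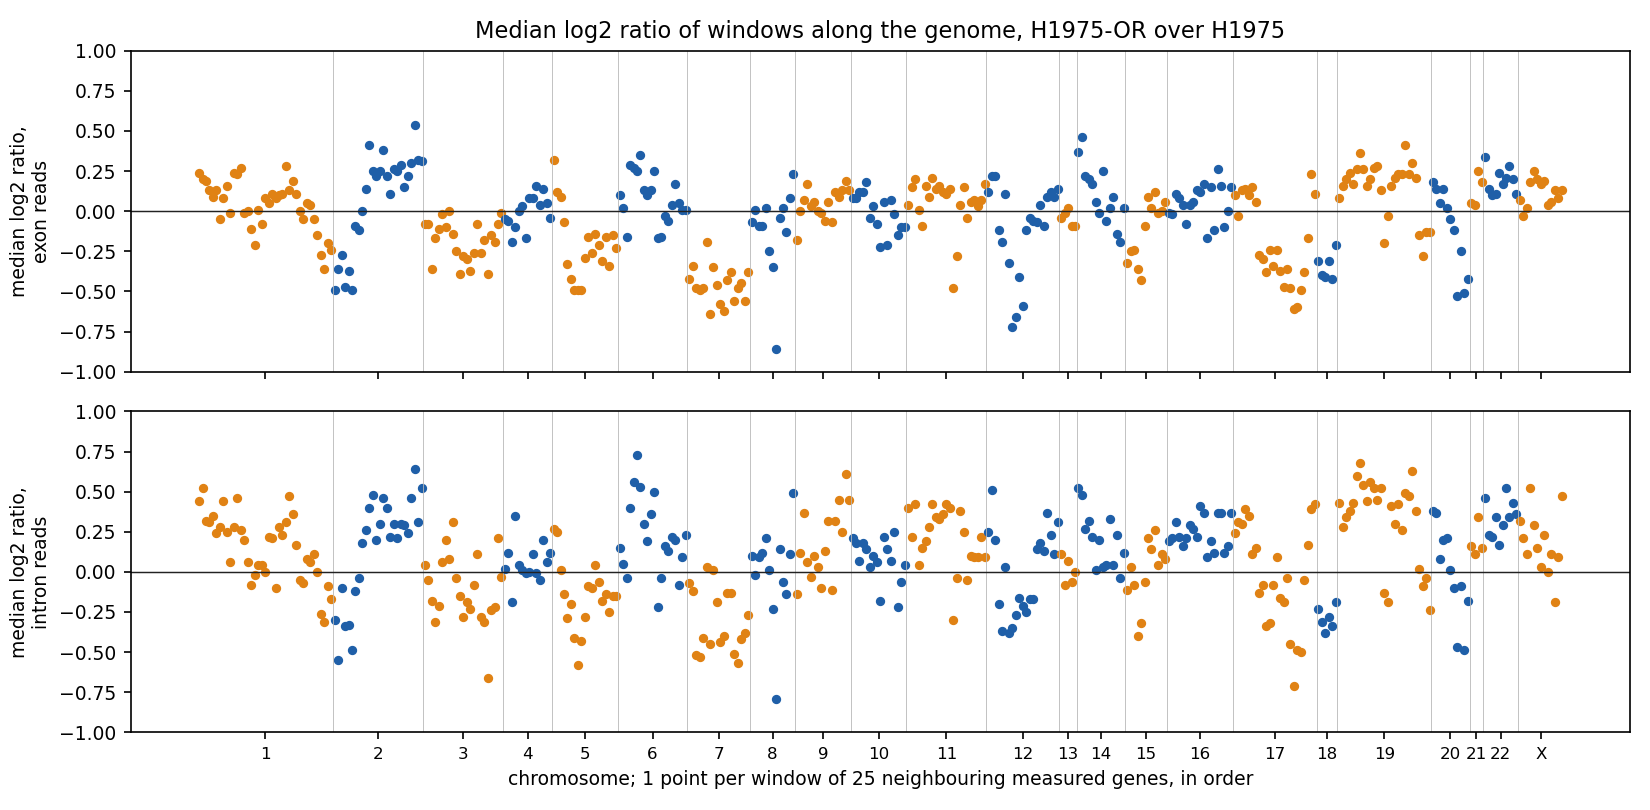
Median log2 ratio of H1975-OR over H1975 in 393 windows of 25 neighbouring measured genes, in chromosome order with alternating colours, for exon reads (top) and intron reads (bottom). By exon reads the windows of chromosomes 7 and 18 lie below 0, the first 8 windows of chromosome 2 lie below the rest of it, and the lowest point is on chromosome 8 (−0.86 by exon and −0.79 by intron reads).

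The lowest window of all, from IMPA1 to VIRMA on chromosome 8 (81.7 to 94.6 Mb), had a median of −0.86, with 24 of 25 genes below 0 and 9 past 2-fold. Ratios in it ran from −2.79 (GEM) to 0.11 (RAD54B). The genes past 2-fold included WWP1 (−1.37), RMDN1 (−1.11) and CPNE3 (−1.15), and further along OSGIN2 (−1.60), NBN (−1.09) and DECR1 (−1.09). Between these groups RIPK2 was at −0.91, while C8orf59 (−0.25), RBM12B (−0.20), PDP1 (−0.27) and VIRMA (−0.21) in the same window lay nearer to 0. WWP1 is a ubiquitin ligase, NBN encodes nibrin of the DNA double-strand break repair complex, and DECR1 is a mitochondrial fatty acid oxidation enzyme. CNBD1, whose intron reads went from 416 to 17, lies between CPNE3 and RIPK2. The same window had medians of −0.34 in the HCC827 pair and −0.03 in the PC9 pair. PTDSS1 (0.17) and MTDH (0.10), further along the chromosome, lay above 0. The next window, from DPY19L4 to ZNF706, had a median of −0.04, with 15 of 25 genes below 0.

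Runs of at least 3 neighbouring measured genes past 2-fold in one direction numbered 12 among lower and 2 among higher genes. The higher runs were OAS1, OAS3 and OAS2 on chromosome 12, and BACE2, MX2, MX1 and TMPRSS2 on chromosome 21, from 41167801 to 41531116. BACE2, a secretase-type protease, went from 31.8 to 70.8 CPM (1.16) and TMPRSS2, a surface serine protease, from 3.29 to 21.4 CPM (2.70). TMPRSS3, further along, went from 4.89 to 26.6 CPM (2.44). Lower runs included the metallothionein genes MT2A, MT1E and MT1X, the squamous serpins SERPINB4, SERPINB3 and SERPINB7, and CDH3 next to CDH1 on chromosome 16. The longest was LIMA1, LARP4, DIP2B, ATF1 and METTL7A on chromosome 12, with ratios from −1.70 to −1.03.

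The same genes were looked up in the other 2 pairs. Of the 170 higher genes of H1975, 83 were measured in HCC827 and 73 in PC9. Each share of a list below is over the full list, including genes not measured in the other pair. The shares of all genes cover measured genes only, so these kinds of share are not on the same base. Over measured genes alone, the shares of the H1975 lists would be larger. Also higher in HCC827 were 34 of them (20% of the H1975 list, where 9.66% of all genes measured in HCC827 were higher), and 11 (6.47%) were 2-fold lower there. In PC9, 16 were also higher (9.41%, where 2.58% of all genes were higher) and 6 (3.53%) lower. Of the 434 lower genes, 344 were measured in HCC827 and 329 in PC9. In HCC827, 82 of them were lower (18.9%, where 9.93% of all genes were lower) and nearly as many, 78 (18.0%), were 2-fold higher. In PC9, 14 were lower (3.23%, where 1.87% of all genes were lower), fewer than the 22 (5.07%) that were higher. As shares of the other lists, the 34 and 16 shared higher genes were 3.45% of the HCC827 and 6.30% of the PC9 list (1.69% of all genes were higher in H1975), and the 82 and 14 shared lower genes were 8.10% and 7.61% (4.30% were lower in H1975). The pairs share no library. Genes higher in all 3 pairs were AHRR, MATN2, PKD1P1, RFLNB and SELENOM, and genes lower in all 3 were EGR1, TFPI2, PEG10 and CHST6.

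Interferon-stimulated genes had medians of 0.82 in H1975, −0.75 in HCC827 and 0.44 in PC9, over 33, 25 and 9 measured genes. Epithelial junction genes had medians of −0.95, −2.78 and −0.03 over 19, 34 and 34. The parental level of CDH1 was 24.8 CPM in H1975 against 455 CPM in HCC827 and 207 CPM in PC9, and that of VIM was 2350 CPM against 38.1 and 31.0 CPM. The parental H1975 library thus already had less CDH1 and more VIM RNA than the other parental libraries. AXL had log2 ratios of −1.20, 6.39 and 0.94 in H1975, HCC827 and PC9, and EGFR of −0.87, −4.15 and −0.14. The chromosome 7 median was −0.44, −0.56 and −0.02, and that of chromosome 18 was −0.37, −0.02 and −0.87. With 1 library per state, none of these differences between pairs was tested.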

How the data were processed

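Messenger RNA libraries were made with a stranded kit and sequenced by the authors, 1 library per sample. Trimmomatic, Bowtie2 and hg38 are named in the submitters' processing notes. The sources used here give no counting tool, annotation release or strand setting. Per the file headers, the deposited files hold counts of total exon, uniquely mapping exon and intron reads for each gene, not normalized, and TPM. The deposited series-wide table was not used.

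CPM was total exon reads over the library total. Genes with at least 10 CPM in either library were kept, and the log2 ratio of H1975-OR over H1975 was counted at 2-fold. A count of 0 was set to 3. Intervals are 95% exact binomial (Clopper-Pearson). Intron reads were scaled by their own total, with at least 100 in either library. With 1 library per state no p-value was computed. Alternatives were TMM and relative log expression factors (edgeR 4.0.16), totals without mitochondrial genes, unique reads, TPM, 1 CPM added, and minima of 1 and 50 CPM. The calculation was tested on simulated data. Python 3.11.15 with pandas 2.3.3 was used.

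Members and the 39 gene lists (682 entries) were chosen with earlier results of these data known. Named genes were the 15 highest and lowest protein-coding genes with at least 80% unique reads, the 10 largest gains and losses, up to 4 members per list, a fixed set of EGFR, epithelial and interferon genes, and 8 genes each way by intron ratio and by its gap to the exon ratio. Other genes named were chosen after their values were seen. Promoters came from RefSeq (GRCh38.p14). The EGFR protein stretch and a few of the named genes are not reported here.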

Additional observations from a re-analysis of the deposited data

Results flagged for a closer look

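At 2-fold or more, 13 genes were lower in H1975-OR and higher in the resistant library of both HCC827 and PC9, and 0 genes went the reverse way; 12 of the 13 are described. The difference between the pairs was not tested, as each state has 1 library. The log2 ratio in H1975 was −4.28 for GPNMB, a lysosomal glycoprotein, −3.67 for CD24, −2.59 for the cytokine IL11, −2.34 for AHNAK2 and −2.10 for HHIPL2. It was −1.62 for NPTXR, −1.38 for the amino acid transporter SLC1A4 and −1.30 for LRRC37A3. It was −1.29 for the metallothionein MT1X, −1.21 for the neurotrophic factor ARTN, −1.13 for NABP1 and −1.05 for the collagen receptor MRC2. AHNAK2 stood at 142 and 608 CPM in HCC827 and at 34.0 and 102 CPM in PC9 (parental and resistant). CD24 stood at 549 and 2150 CPM in HCC827 and at 48.3 and 102 CPM in PC9.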

How the results depend on the processing

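The minimum level set the counts: at 1 CPM 412 genes were higher and 968 lower, at 50 CPM 62 and 152, as more or fewer genes entered. With at least 500 intron reads, 26 genes were higher and 30 lower by introns, and among genes that overlap no other gene 155 were higher and 151 lower. Under the other 7 settings, between 143 and 195 genes were higher and between 359 and 455 lower. Lower genes made up 64.8% to 73.4% of those past 2-fold, and the median of all genes lay between −0.04 and 0.06, against −0.02. Of 107 named genes past 2-fold, 0 reversed and 4 were under 2-fold in some setting (SPRED1, KLF5, FJX1 and COL1A1). Settings that only rescale a library move all genes alike and by little, so they could not have reversed a gene past 2-fold. Of 36 list medians, 7 were counted on the other side of 0 in some setting, including drug efflux transporters (−0.25, and 0.01 with TMM). Some of the other changes lay within rounding of 0, so this count is approximate. No paired analysis was possible because each state has 1 library and the labels give no replicate numbers. Depth limits genes with few reads in one library, such as ATP10A, CDH1 and UGT8, whose intervals span several log2 units.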
